A study of Arabidopsis thaliana with 12 samples.

Results

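In rosettes of *ref4-3* plants, 68 genes had less H3K27me3 and less H2A.Z than in wild type, out of 7429 genes that carried both marks at a level high enough to be compared. The 68 genes were chosen by the measured values themselves. For each mark, the count of sequenced fragments in a gene's region was divided by the total of the library's counts and given per 1000000 (CPM). A gene was taken if, for each mark, it had a region with a mean count of at least 100, with both *ref4-3* libraries below both wild-type libraries and the wild-type mean at least 1.2 times the *ref4-3* mean. All 8 libraries and both comparisons of the genotypes therefore went into the choice. Levels of these genes are given as a description, and no test on them supports the choice.

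Both genotypes were in the Col-0 background and were grown on soil in long days to an age of 21 days. Wild-type plants were compared with *ref4-3*, a semidominant allele that changes 1 amino acid of MED5b, a subunit of the tail of the Mediator complex that passes signals from transcription factors to RNA polymerase II. Each genotype had 2 replicates for each mark, and each replicate pooled whole rosettes of several plants. Whole rosettes hold many cell types, so fewer marked cells and less of a mark per cell cannot be told apart. The H3K27me3 libraries held 5805781 to 8466471 fragments inside the counted regions, with the first *ref4-3* replicate the shallowest, and the H2A.Z libraries held 7848342 to 10128759. Levels are relative to those totals, so a change shared by all regions of a mark is not measurable. The counts were not corrected by input chromatin, and the DNA copy number of the regions was not analysed here.

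H3K27me3, trimethylation of lysine 27 of histone H3, is set by Polycomb repressive complex 2 and marks genes that are kept silent in a given tissue. H2A.Z is a variant of histone H2A that the SWR1 complex places into nucleosomes. In plants it lies at the start of many active genes and across the body of genes that respond to the environment or are rarely expressed, where it is often found together with H3K27me3.

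The number of genes lower by the same criteria was much larger for either mark alone. Of the 7429 genes, 760 (10.2%) were lower in *ref4-3* for H3K27me3 and 197 (2.65%) for H2A.Z. The 68 genes were 8.95% of the first set and 34.5% of the second. Opposite directions were rarer: 13 genes were lower for H3K27me3 and higher for H2A.Z, and 12 genes were the reverse. The mirrored criteria, with both marks higher in *ref4-3*, were met by 53 genes. Leaving out the first *ref4-3* replicate of H2A.Z raised the 68 to 104 genes, of which 60 were among the 68. Leaving out any other library gave 63 to 80. These counts share the libraries of both genotypes and describe how the choice came out.

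The H3K27me3 level of the 68 genes was lower by a median of 1.36-fold, and H2A.Z by a median of 1.26-fold. On the log2 scale the differences had a median of -0.44 for H3K27me3 and ranged from -0.26 to -1.87. For H2A.Z the median was -0.33 and the range was from -0.26 to -1.32. Over all 7429 genes, each at its region with the highest mean count, the medians were -0.01 and -0.02. H3K27me3 was the mark with the larger difference in 56 of the 68 genes and H2A.Z in 12. The level was more than 1.5-fold lower in 16 genes for H3K27me3 and in 4 genes for H2A.Z, so most of the differences were small. Across the 68 genes the sizes of both differences had a Pearson r of 0.44, which fell to -0.01 over the 67 genes without *AT1G35895*, and a Spearman rho of 0.04. The genes share libraries and were chosen on these values, so these figures are only a description.

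**Figure D1:**
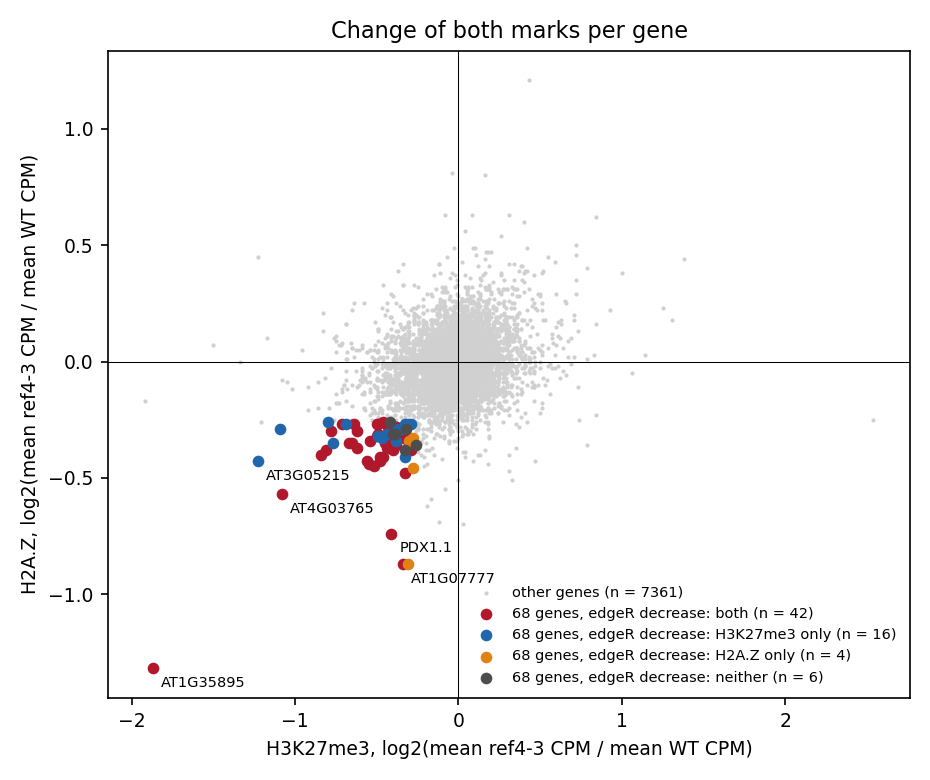
Each point is a gene, with its H3K27me3 difference on the x axis and its H2A.Z difference on the y axis, both as the log2 ratio of the mean *ref4-3* CPM to the mean wild-type CPM. Coloured points are the 68 genes, by the marks that edgeR called decreased, and grey points are the other genes with both marks, for which the region with the highest mean count is drawn. The 68 genes fill the lower left by construction, and *AT1G35895* stands alone at -1.87 and -1.32.

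The spread between replicates can be set beside these differences. The highest *ref4-3* library was below the lowest wild-type library by a median of 0.30 log2 units for H3K27me3 and 0.25 for H2A.Z. Replicates of 1 genotype were a median of 0.09 apart in wild type for both marks. In *ref4-3* they were 0.13 apart for H3K27me3 and 0.09 for H2A.Z. The gap between genotypes was larger than the distance between replicates in both genotypes for 51 genes in H3K27me3 and for 50 in H2A.Z. The criteria required both *ref4-3* libraries to be lower, so a gap in this direction was fixed by the choice. Its size, here and for single genes below, is only a description. The smallest gap was 0.025 in H3K27me3 and 0.004 in H2A.Z, so genes at that end had nearly touching libraries. An exact permutation of 2 against 2 libraries gives no two-sided p below 0.333.

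edgeR's exact test, run on all regions of a mark with trimmed-mean scaling, counts how many of these genes were also called decreased at a Benjamini-Hochberg adjusted p-value under 0.05 and a fold change above 1.2. Over whole tables, 7.70% of 8286 genes were called decreased for H3K27me3 and 1.79% of 22249 genes for H2A.Z. Of 7665 genes with regions in both tables, 0.587% were called decreased for both. Among the 68 genes, 58 (85.3%) were called for H3K27me3, 46 (67.6%) for H2A.Z and 42 for both. A further 16 were called for H3K27me3 only and 4 for H2A.Z only, namely *AT1G06353*, *PFK3*, *AO1* and *PP2-A8*. The 6 genes called for neither were *AT5G46260*, *LOG1*, *AT2G07042*, *TBL19*, *AGAL2* and *AT1G65690*. The criteria used the same contrast, so the excess over whole tables was built into the choice. The calls depended on the test for both marks, and most for H2A.Z: with DESeq2, 33 of the 68 genes were called for H3K27me3, 4 for H2A.Z and 3 for both. Over whole tables, DESeq2 called 219 of 8286 genes decreased for H3K27me3 and 17 of 22249 for H2A.Z. The calls also depended on single replicates, over whole tables as in the 68 genes. Each fit below leaves 1 library in a genotype, and over whole tables the number of decreased calls also fell for both marks. Without the first wild-type replicate, 43 genes were called for H3K27me3, 11 for H2A.Z and 8 for both. Without the second wild-type replicate, the numbers were 39, 14 and 10. Without the second *ref4-3* replicate they were 51, 25 and 24.

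*AT1G35895*, a gene for an uncharacterized protein on chromosome 1, had the largest difference in both marks. Both marks were counted over the same 1000 bp, which start 25 bp from the gene's start and are 68.0% coding sequence and 32.0% intron. H3K27me3 was 32.8 and 33.0 CPM in the wild-type libraries and 9.30 and 8.66 CPM in the *ref4-3* libraries, a 3.66-fold difference. H2A.Z was 30.2 and 33.8 CPM in wild type and 13.0 and 12.6 CPM in *ref4-3*, a 2.50-fold difference. Replicates lay close together beside a wide gap between genotypes in both marks. This is a small part of a gene of 7348 bp. *AT1G35890*, a gene for a NAC-domain protein, lies 4924 bp away and was also among the 68, with differences of -0.31 and -0.27 on the log2 scale.

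*UGT84A2* had the fifth largest summed difference. It codes for a glucosyltransferase that makes sinapoylglucose, a step towards the sinapate esters whose loss dims the leaf fluorescence for which *ref* mutants are named. Its H3K27me3 was 37.0 and 37.4 CPM in wild type and 21.5 and 20.1 CPM in *ref4-3*, a 1.79-fold difference. H2A.Z was 88.9 and 91.9 CPM in wild type and 68.9 and 68.3 CPM in *ref4-3*, a 1.32-fold difference. The genotypes were clearly apart and replicates close together in both marks, and edgeR called both decreased. The H3K27me3 region was wholly coding sequence and covered 41.5% of the gene.

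*MAF5*, a MADS-box repressor of flowering of the *FLC* clade, had both marks called decreased. H3K27me3 over a 3800 bp region was 264.3 and 260.2 CPM in wild type and 165.4 and 168.2 CPM in *ref4-3*. H2A.Z over 2200 bp was 61.0 and 59.0 CPM in wild type and 46.9 and 47.1 CPM in *ref4-3*. The differences were 1.57-fold and 1.28-fold, and in both marks all wild-type values were well above all *ref4-3* values. H3K27me3 islands, stretches called enriched by the authors, covered 3800 bp of the gene in wild type and 3200 bp in *ref4-3*, and H2A.Z islands covered 2800 and 1600 bp.

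*PDX1.1*, a subunit of the enzyme that makes pyridoxal phosphate, the active form of vitamin B6, was 1 of the few genes with the larger difference in H2A.Z. H2A.Z was 45.3 and 40.1 CPM in wild type and 30.5 and 20.8 CPM in *ref4-3*. H3K27me3 was 40.0 and 44.8 CPM in wild type and 33.2 and 30.4 CPM in *ref4-3*. The second *ref4-3* replicate of H2A.Z was much lower than the first, so the 1.67-fold difference rests in part on that library: without it the edgeR log2 fold change of PDX1.1 was -0.50 in place of -0.73. Of its regions, 12.6% for H2A.Z and 11.0% for H3K27me3 had a near-identical copy elsewhere in the genome, where reads could be shared.

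The DNA that carried both marks is shown for the last 3 of these genes as 200 bases near the centre of the stretch counted for both, read 5′ to 3′ along the gene from TAIR10.1. Capitals mark coding bases and lower case marks intron. All are on the plus strand, at chr3:7596701-7596900 for *UGT84A2*, chr5:26000701-26000900 for *MAF5* and chr2:16011901-16012100 for *PDX1.1*. They show only a part of the counted regions: coding sequence in *UGT84A2* and *PDX1.1* and an intron and exon in *MAF5*. The whole regions of *MAF5* were 86.5% intron for H3K27me3 and 76.0% for H2A.Z. GC content was 45.0% in *UGT84A2*, 40.0% in *MAF5* and 50.5% in *PDX1.1*.
UGT84A2: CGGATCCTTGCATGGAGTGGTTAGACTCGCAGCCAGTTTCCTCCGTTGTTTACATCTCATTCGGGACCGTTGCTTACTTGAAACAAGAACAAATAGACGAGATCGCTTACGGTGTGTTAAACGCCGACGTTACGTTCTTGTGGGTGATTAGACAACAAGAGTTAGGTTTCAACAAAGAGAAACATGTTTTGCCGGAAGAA
MAF5: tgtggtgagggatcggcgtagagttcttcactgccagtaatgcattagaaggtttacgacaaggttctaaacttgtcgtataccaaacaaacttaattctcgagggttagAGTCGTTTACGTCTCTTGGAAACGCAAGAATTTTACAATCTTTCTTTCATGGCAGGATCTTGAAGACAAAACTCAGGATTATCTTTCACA
PDX1.1: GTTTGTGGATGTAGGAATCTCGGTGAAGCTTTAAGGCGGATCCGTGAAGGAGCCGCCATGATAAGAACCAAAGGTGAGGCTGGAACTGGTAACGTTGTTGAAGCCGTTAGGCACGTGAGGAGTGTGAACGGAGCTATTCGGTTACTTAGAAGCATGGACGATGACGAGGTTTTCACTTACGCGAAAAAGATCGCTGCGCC

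**Figure D2:**
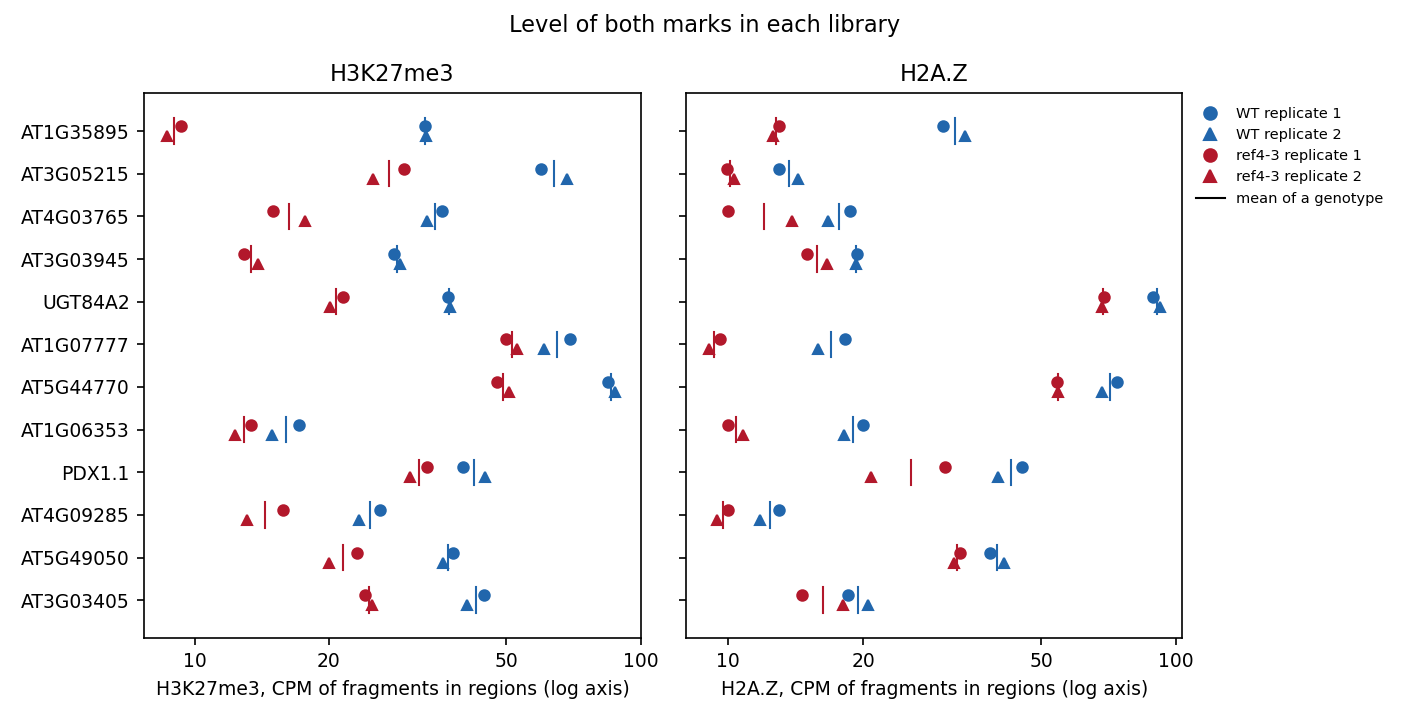
Level of H3K27me3 (left) and H2A.Z (right) in each library for the 12 genes with the largest summed difference, in CPM on a log axis. Circles are first and triangles second replicates, blue is wild type, red is *ref4-3*, and a vertical line is the mean of a genotype. Wild-type symbols are to the right of *ref4-3* symbols in every row, since the genes were chosen for this, and *AT1G35895* has the widest gap in both marks.

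Non-coding genes were frequent at the top of the order, which is set by the values used for the choice. Of the 68 genes, 57 (83.8%) were protein-coding, 9 (13.2%) were non-coding RNA genes and 2 (2.94%) were pseudogenes. Over all 7429 genes, 89.4% were protein-coding and 8.72% were non-coding. Of the 10 genes with the largest summed differences, 6 were non-coding: *AT3G05215*, *AT4G03765*, *AT3G03945*, *AT1G07777*, *AT1G06353* and *AT4G09285*. The other 3 non-coding genes were *AT2G07042*, *AT4G06200* and *AT5G05125*. The 6 at the top had short H3K27me3 regions of 208 to 496 bp, and held 71 to 195 H2A.Z fragments per library. The part of such low counts in the order was not tested.

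The non-coding genes differed in which mark was the more reduced. In *AT3G05215*, H3K27me3 was 59.9 and 68.3 CPM in wild type and 29.5 and 25.1 CPM in *ref4-3*, a 2.35-fold difference, beside a 1.35-fold difference in H2A.Z. *AT4G03765* and *AT3G03945* both had 2.12-fold differences in H3K27me3, with H2A.Z 1.48-fold and 1.22-fold lower. In these 3 genes and in *AT4G09285*, all H3K27me3 libraries of wild type were far above those of *ref4-3*, while edgeR called H2A.Z decreased only in *AT4G03765*. That gene's value is uncertain, since 46.0% of its region had a near-identical copy elsewhere.

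*AT1G07777* and *AT1G06353* showed the other order. In *AT1G06353*, the H2A.Z libraries held 181 and 183 fragments in wild type and 89 and 85 in *ref4-3*, and the means were 19.0 and 10.4 CPM. Its H3K27me3 was 17.1 and 14.9 CPM in wild type and 13.4 and 12.3 CPM in *ref4-3*, a small gap beside the distance between the wild-type replicates, and was not called by edgeR. In *AT1G07777*, H2A.Z was 18.2 and 15.9 CPM in wild type and 9.59 and 9.05 CPM in *ref4-3*, a 1.83-fold difference, and both marks were called decreased. These were the largest H2A.Z differences after *AT1G35895*, on fewer than 200 fragments per library.

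*AT1G06353* and *AT4G09285* are so short that both marks were counted over the whole gene. Their sequences are shown as examples of each order, and read 5′ to 3′ from TAIR10.1 at chr1:10921835-10922072 and chr4:17159090-17159297, both on the minus strand. The first, 238 bases with the larger H2A.Z difference, has a GC content of 45.0%. The second, 208 bases with the larger H3K27me3 difference, has a GC content of 29.8%. Neither gene has coding bases, so no letters are in capitals.
AT1G06353: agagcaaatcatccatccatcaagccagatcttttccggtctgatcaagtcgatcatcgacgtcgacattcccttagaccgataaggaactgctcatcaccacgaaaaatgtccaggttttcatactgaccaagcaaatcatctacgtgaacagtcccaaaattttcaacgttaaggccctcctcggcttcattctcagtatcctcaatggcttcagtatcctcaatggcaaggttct
AT4G09285: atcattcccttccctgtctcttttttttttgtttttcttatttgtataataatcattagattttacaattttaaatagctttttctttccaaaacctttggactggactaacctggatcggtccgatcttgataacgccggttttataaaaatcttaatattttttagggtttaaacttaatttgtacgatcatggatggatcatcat

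Protein-coding genes were grouped by words in their annotation, and the words were chosen with the genes known. Among the 57, the words pectin, cellulose synthase, exostosin, trichome birefringence, xyloglucan or expansin found 5 genes (8.77%, against 3.07% of all 6645 protein-coding genes with both marks). They were the pectin-related *AT3G43270* and *AT5G27870*, the cellulose synthase-like *CSLG3*, *TBL19* of a family that acetylates wall polysaccharides, and the exostosin-like glycosyltransferase *AT3G42180*. The words glycine-rich protein or arabinosyltransferase found 3 (5.26%, against 0.527%), the glycine-rich *GRP23* and *AT2G05580* and the arabinosyltransferase-like *AT2G25260*. Over these 8 genes the H3K27me3 differences on the log2 scale were between -0.38 in *GRP23* and -0.69 in *CSLG3*. Those of H2A.Z were between -0.26 in *TBL19* and *AT3G43270* and -0.41 in *AT2G25260*. In *CSLG3*, H3K27me3 was 34.3 and 32.1 CPM in wild type and 22.4 and 18.7 CPM in *ref4-3*. Its H2A.Z was 26.2 and 27.6 CPM in wild type and 23.6 and 21.0 CPM in *ref4-3*. The gap was wide for the first mark and narrow for the second, and only H3K27me3 was called. *AT5G27870* lost H2A.Z in only 1 of its 2 regions. The region used held 57.3 and 54.6 CPM in wild type and 43.8 and 44.2 CPM in *ref4-3*. The other region of *AT5G27870* held 53.8 and 54.4 CPM of H2A.Z in wild type and 71.1 and 67.1 CPM in *ref4-3*, and was called increased. H3K27me3 of that other region was also higher in *ref4-3*, at 79.1 and 72.1 CPM against 64.8 and 63.9 CPM, and was not called. The gene therefore did not lose either mark along its whole length. In *AT3G43270*, the H3K27me3 region used held 25.2 and 26.3 CPM in wild type and 18.9 and 18.5 CPM in *ref4-3*. Its other, longer H3K27me3 region did not differ, with 126.3 and 128.9 CPM in wild type and 121.3 and 136.2 CPM in *ref4-3*. The other H2A.Z region of *AT3G43270* had a log2 difference of -0.03.

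F-box proteins choose targets for ubiquitination, and 6 of the genes were annotated with an F-box or its associated domain (10.5%, against 5.10%). They were *AT2G26850*, *AT3G03405*, *AT4G10190*, *AT5G41510*, *AT5G43550* and *AT5G50220*. edgeR called H3K27me3 decreased in all 6 of these and H2A.Z in all of them but *AT3G03405*. The largest H3K27me3 difference in this group was in *AT3G03405*, with 44.6 and 40.9 CPM in wild type and 24.1 and 25.0 CPM in *ref4-3*. In *AT5G50220*, H3K27me3 was 64.8 and 59.1 CPM in wild type and 37.5 and 40.5 CPM in *ref4-3*, and H2A.Z was 48.6 and 47.6 CPM against 37.0 and 38.4 CPM. The *ref4-3* values of *AT5G50220* were below all wild-type values by more than the distance between replicates.

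Membrane transporters were 5 of the 57 (8.77%, against 2.90%): the polyol and monosaccharide carrier *PMT2*, the ABC transporter *ABCG38*, the MATE efflux gene *AT4G21910*, and *UMAMIT20* and *UMAMIT17* of a family that exports amino acids. H3K27me3 was called decreased in all 5 of these, and H2A.Z in all except *UMAMIT17*. In *ABCG38*, H3K27me3 was 52.9 and 54.1 CPM in wild type and 30.7 and 34.6 CPM in *ref4-3*. H2A.Z of the same gene was 53.0 and 53.1 CPM in wild type and 44.3 and 43.4 CPM in *ref4-3*. Replicates agreed closely in both marks, so the 1.21-fold difference in H2A.Z was larger than their spread.

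Transcription factor genes were 4 (7.02%, against 7.61%): *MAF5*, the MADS-box gene *AGL79*, the NAC gene *AT1G35890* and *AT5G51590*, which codes for an AT-hook protein. In *AGL79*, H3K27me3 lay over the whole gene at 275.6 and 306.1 CPM in wild type and 225.6 and 237.2 CPM in *ref4-3*. Its H2A.Z region of 400 bp held 15.5 and 15.3 CPM in wild type and 11.1 and 12.1 CPM in *ref4-3* and was not called. The other 2 H2A.Z regions of *AGL79* did not differ in this way, with log2 differences of 0.03 and -0.03. The lower of these regions held 17.8 and 19.9 CPM in wild type and 19.1 and 17.8 CPM in *ref4-3*. In *AT5G51590*, H3K27me3 was 242.4 and 257.3 CPM in wild type and 147.6 and 173.3 CPM in *ref4-3* with a wide gap between the genotypes. H3K27me3 was called decreased in all 4 of these genes, and H2A.Z in *MAF5* and *AT5G51590*. The other H2A.Z region of *AT5G51590* was not lower, with 46.5 and 49.3 CPM in wild type and 53.1 and 49.2 CPM in *ref4-3*.

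Immune receptor genes of the NBS-LRR class were 2 (3.51%, against 0.587%): *ADR1*, a helper for other receptors, and *AT5G46260*. In *ADR1*, H3K27me3 was 23.0 and 21.9 CPM in wild type and 18.8 and 13.4 CPM in *ref4-3*, and H2A.Z was 30.0 and 27.2 CPM against 23.1 and 19.9 CPM. Both marks of *ADR1* were called decreased, but in regions 1000 bp apart. The H2A.Z region of *ADR1* that overlapped its H3K27me3 region was higher in *ref4-3*, with 30.1 and 33.0 CPM in wild type and 37.7 and 38.0 CPM in *ref4-3*, and was not called. Receptor-like and other protein kinases were 2 as well (3.51%, against 2.26%), *PRK2A*, known from pollen, and *AT5G35580*. The remaining genes with a known role included *LOG1*, which activates cytokinins, *AO1*, an aldehyde oxidase, *PFK3*, a phosphofructokinase of glycolysis, *AGAL2*, an alpha-galactosidase, and *CRH1*, an ATPase of the MORC family that takes part in gene silencing. H3K27me3 differences in these 5 genes were between -0.26 and -0.40, and H2A.Z differences between -0.28 and -0.46. A further 5 genes coded for uncharacterized proteins (8.77%, against 10.4%).

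The remaining 18 protein-coding genes had no shared family. Their H3K27me3 differences were between -0.28 and -0.81 on the log2 scale and their H2A.Z differences between -0.27 and -0.48, and edgeR called the first mark in 16 and the second in 13 of these. The largest H3K27me3 difference was in *AT5G44770*, which codes for a protein with cysteine- and histidine-rich C1 domains. Its H3K27me3 was 84.6 and 87.4 CPM in wild type and 47.7 and 50.7 CPM in *ref4-3*, and its H2A.Z was 73.6 and 68.4 CPM against 54.3 and 54.5 CPM. Replicates were close in both marks and the genotypes well apart. In *AT5G49050*, annotated as a universal stress A-like protein, H3K27me3 was 37.9 and 36.0 CPM in wild type and a mean of 21.5 CPM in *ref4-3*. Both marks were called decreased in both pseudogenes, *AT1G21330* and *AT2G03860*.

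Of 65 genes in 8 lists chosen for this tissue and allele (flowering repressors and integrators, floral MADS-box genes, meristem genes, seed regulators, jasmonate genes, phenylpropanoid genes and the thalianol and marneral clusters), 42 had both marks at a mean count of 100 or more, and 1 was among the 68. That gene was *MAF5*. Among 4 jasmonate genes with both marks, none was, and edgeR called 5 jasmonate genes increased and none decreased for H3K27me3, among 5 with a region. For that mark 5.52% of all genes in the table were called increased. For H2A.Z it called 6 decreased and none increased among 14, where 1.79% of the whole table was called decreased and 2.90% increased. The list was written with earlier results of these data known. Of the other lists, H3K27me3 was called decreased in the boundary gene *CUC3*, 1 of 8 meristem genes, and in *AGL20*, 1 of 4 flowering integrators, and increased in *PAL1*, 1 of 2 phenylpropanoid genes. H2A.Z was called decreased in *SEP2* and increased in *SEP1* among 12 floral MADS-box genes, and decreased in *PAL1* among 8 phenylpropanoid genes. *MAF5* was called for both marks among 3 flowering repressors, and no gene was called among 4 seed regulators and 5 genes of the thalianol and marneral clusters.

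Both marks lay over a shared stretch in nearly all of these genes. Some pair of H3K27me3 and H2A.Z regions overlapped in 67 of the 68 genes (98.5%, against 99.4% of all 7429 genes), the exception being *LOG1*. The regions used, which for each mark were the qualifying ones with the highest mean count, overlapped in 58 genes (85.3%). Over all 7429 genes, each at its regions with the highest mean count, the share was 97.1%. The regions used had the same borders for both marks in 20 of the 68 genes. In the other 10 genes, among them *CSLG3*, *ADR1*, *LOG1* and *AO1*, the regions used for each mark were 600 to 3600 bp apart within the gene. In 9 of these 10 some other pair of regions of both marks did overlap. H2A.Z in such pairs often differed little or was higher in *ref4-3*. Its log2 differences there were 0.26 in *ADR1*, 0.04 in *UMAMIT17*, -0.10 in *AO1* and -0.15 in *AT3G42180*. In *CSLG3* and *AT2G25260*, regions with the same borders met the criteria for both marks. In the rest of the 10, the regions that met the criteria for each mark lay in different parts of the gene. Qualifying regions of both marks shared at least 200 bp in 60 genes. Genes with several H2A.Z regions were frequent, at 27 of the 68, against 15.3% of all. H3K27me3 was in several regions in 10 genes, against 4.56% of all. A gene was taken if any of its regions met the criteria, so genes with several regions had more chances, and this excess is not a separate property. The regions that were not used for a gene's value were lower in *ref4-3* in 10 of 12 cases for H3K27me3 and 24 of 33 for H2A.Z, with median differences of -0.33 and -0.09 on the log2 scale. Summed over all regions of a gene, both *ref4-3* libraries were below both wild-type libraries in 8 of the 10 genes with several H3K27me3 regions and in 22 of the 27 with several H2A.Z regions. In 9 of these 27 genes at least 1 H2A.Z region had a higher mean in *ref4-3*, and that of *AT5G27870* was called increased.

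Levels of H3K27me3 in wild type were lower in the 68 genes than in all genes with both marks. The median was 53.4 CPM per kb, against 78.9 over all. For H2A.Z the medians were 41.8 and 42.6 CPM per kb. The counted regions were also shorter, with medians of 916.0 and 775.0 bp against 1115.0 and 1112.0 bp. The median gene therefore rested on mean counts of 314.1 fragments for H3K27me3 and 248.4 for H2A.Z, against 664.5 and 422.8 over all. These values are of the qualifying region in the 68 genes and of the region with the highest mean count over all. The measures are thus unlike in genes with several regions, and the part of this in the differences was not tested. Regions with fewer fragments vary more, and the part of this in the choice was not tested. At a minimum of 200 fragments in place of 100, 34 genes met the criteria.

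Islands were called from the same reads as the counts and are not independent of them. H3K27me3 islands covered more of the gene in wild type in 43 of the 68 genes and more in *ref4-3* in none, against 18.3% and 9.72% of all 7429 genes. H2A.Z islands covered more in wild type in 47 and more in *ref4-3* in 1, *AT5G27870*, against 21.4% and 15.4%. In 11 genes (16.2%, against 3.66% of all) an H3K27me3 island was present only in wild type, among them *UGT84A2* with 800 bp, *AT3G03405* with 921 bp and *AT1G35895* with 1000 bp. H2A.Z islands were present only in wild type in 9 genes (13.2%, against 1.22%). In *AGL79* they covered 2366 bp in wild type and 0 in *ref4-3*, although 2 of its 3 H2A.Z regions had overlapping counts in both genotypes, as given above. In *AT5G49680*, a long gene for a SABRE-like protein, H2A.Z islands covered 8288 bp in wild type and 1288 bp in *ref4-3*.

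**Figure D3:**
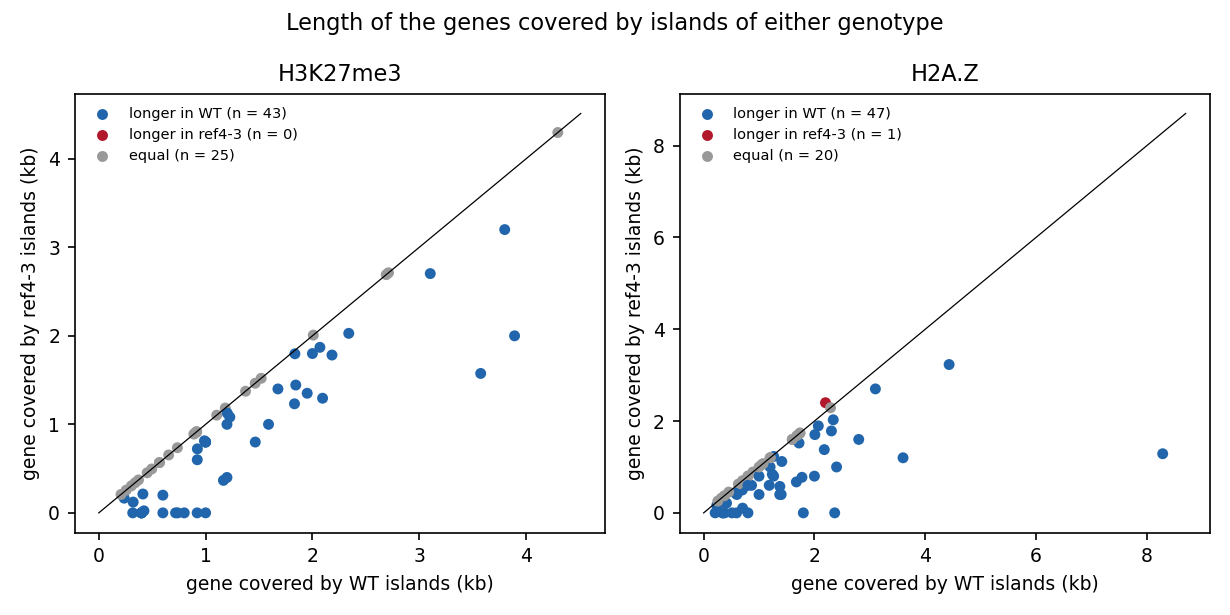
Length of each of the 68 genes covered by islands called on the merged replicates, in kb, in wild type (x axis) and *ref4-3* (y axis), for H3K27me3 (left) and H2A.Z (right). Points on the line have equal lengths, blue points are longer in wild type (43 and 47 genes) and the red point is longer in *ref4-3* (0 and 1 gene).

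A feature that the criteria did not use was position on the chromosome. The 68 genes were on all 5 chromosomes, with 15, 12, 10, 10 and 21 genes on chromosomes 1 to 5, and none was within 1 Mb of *REF4* (*AT2G48110*), against 1.10% of all. Gene density was taken as the number of protein-coding genes within 250 kb, and surroundings with under 68 of them, 1/2 of the genome's median of 136, were called gene-poor. Such surroundings held 15 of the 68 genes (22.1%), against 241 of all 7429 (3.24%). The share was 6.36% of 692 genes lower for H3K27me3 but not H2A.Z, 6.98% of 129 genes lower for H2A.Z but not H3K27me3, and 1.89% of the 53 genes with both marks higher. In Arabidopsis, gene-poor stretches lie around the centromeres and are rich in transposons.

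The 15 genes were *AT1G35890*, *AT1G35895*, *AT2G05580*, *PRK2A*, *AT2G07042*, *AT3G29800*, *AGL79*, *ABCG38*, *AT3G42180*, *AT3G43270*, *UMAMIT20*, *UMAMIT17*, *AT5G05125*, *AT5G34780* and *AT5G35580*. The fewest neighbours were 15, around *AT5G34780*, and 17, around *ABCG38*. The 241 gene-poor genes as a whole had median differences of -0.10 for H3K27me3 and -0.06 for H2A.Z on the log2 scale, against -0.01 for both marks in the other genes. Their median mean count was 488.5 for H3K27me3 and 381.0 for H2A.Z. Several of the 15 lie close to each other, so they are not separate cases. Whether reads from repeats contribute there was not tested.

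**Figure D4:**
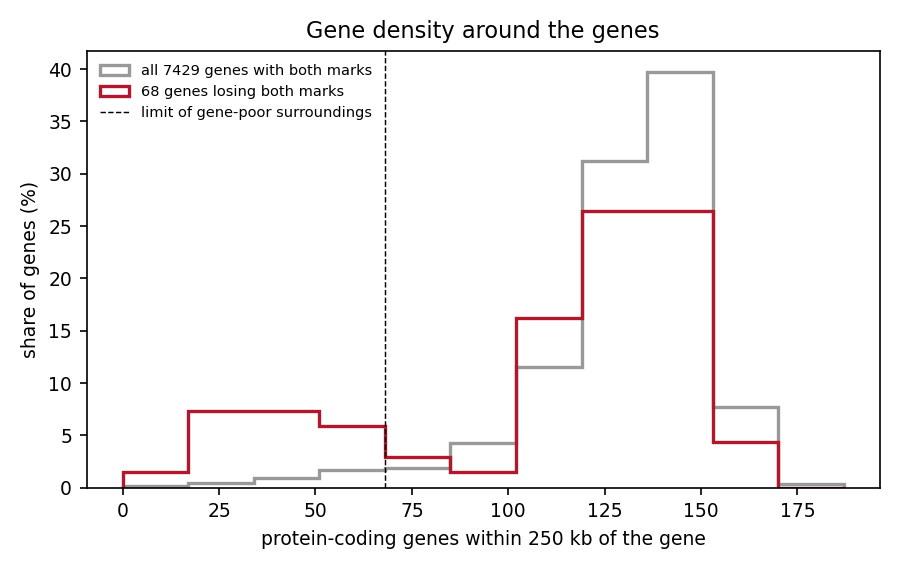
Share of genes (%) by the number of protein-coding genes within 250 kb, for the 68 genes (red) and all 7429 genes with both marks (grey). The dashed line is the limit of gene-poor surroundings, and 22.1% of the 68 genes are to its left, against 3.24% of all.

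Direct neighbours showed part of the H3K27me3 difference. Next to the 68 genes, 52 other genes within 5 kb had H3K27me3 regions, of which 37 (71.2%) were lower in *ref4-3* and 11 (21.2%) met the criteria for that mark, against 53.6% and 9.86% of all regions. For H2A.Z, 46 of 89 neighbours (51.7%) were lower and 3 (3.37%) met the criteria, against 47.4% and 2.88%. The neighbours' H3K27me3 difference had a median of -0.10, against -0.44 in the 68 genes themselves. H2A.Z of the neighbours was close to that of all regions.

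Of the 68, 5 pairs of genes lay within 20 kb of each other on the chromosome. *UMAMIT20* and *UMAMIT17* lie 3752 bp apart on the same strand. *PRK2A* and the non-coding *AT2G07042* lie 560 bp apart on opposite strands, and *AT4G09285* lies 5955 bp from *CRH1*. The other pairs were *AT1G35890* with *AT1G35895*, and *AT5G08360* with *AGAL2*, which overlap by 96 bp. Fragments in that overlap were counted for both genes, so this pair is not independent. Overlap with other counted genes was also seen for *AT1G72080* and *AT5G05125*, and 8.67% of the region of *AT3G29800* had a near-identical copy.

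Promoters were searched on both strands for 3 motifs in the 300 bases from 250 before to 50 after the gene start. The telobox AAACCCTA and the GAGA repeat GAGAGA are short motifs bound by factors that recruit Polycomb proteins in Arabidopsis, and the G-box CACGTG is bound by MYC2, a factor of jasmonate signalling. The telobox was in 8 of the 68 promoters (11.8%), against 7.19% of all 7429 genes and 6.17% of 37899 annotated genes. The GAGA repeat was in 18 (26.5%), against 28.6% and 28.5%. The G-box was in 3 (4.41%), against 6.47% and 6.46%. The motifs do not overlap each other in their letters. A match is a description of the letters only.

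The telobox promoters are shown for 4 of these genes in which edgeR called H3K27me3 decreased, to give the motif with its surroundings. Each line has 60 bases before the gene start, read 5′ to 3′ along the gene from TAIR10.1, with the motif in capitals. It reads AAACCCTA on the gene's strand and TAGGGTTT where it is on the opposite strand. The stretches were chr3:810861-810920 on the minus strand, chr3:11719935-11719994 on the plus strand, chr5:16607064-16607123 on the plus strand and chr5:20447208-20447267 on the minus strand. *AT3G03405*, *AT5G41510* and *AT5G50220* are F-box genes of the group above, with the motif starting 99, 33 and 41 bases before the gene start. *AT3G29800* codes for a nucleoside triphosphate hydrolase, and its motif starts 135 bases before the gene start.
AT3G03405: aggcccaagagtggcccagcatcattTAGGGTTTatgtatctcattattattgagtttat
AT3G29800: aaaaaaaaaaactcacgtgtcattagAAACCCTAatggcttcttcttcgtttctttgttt
AT5G41510: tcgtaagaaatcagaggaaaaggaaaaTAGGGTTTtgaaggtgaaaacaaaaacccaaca
AT5G50220: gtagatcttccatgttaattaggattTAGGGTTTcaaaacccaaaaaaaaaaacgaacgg

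The limit of 1.2-fold cut through a continuous range. Just inside it were *TBL19*, with 1.338-fold for H3K27me3 and 1.2-fold for H2A.Z, *AGAL2* with 1.2-fold and 1.287-fold, and *AT3G43270* with 1.374-fold and 1.201-fold. Just outside were *AT5G10770* with 2.316-fold and 1.199-fold, *AT3G58270* with 1.252-fold and 1.198-fold, and *MLP31* with 1.197-fold and 1.229-fold. Genes on either side of the limit thus had nearly equal values. Without the limit on the fold, 967 of the 7429 genes had both *ref4-3* libraries below both wild-type libraries in both marks.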

How the data were processed

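Per the labels and the study's methods, the authors trimmed reads with fastp, mapped them to TAIR10 with Bowtie2 and kept proper pairs. They called enriched islands per library and on merged replicates at a bin of 200 bp. The deposited counts are fragments per gene part inside a joined island, not normalized, in 1 table per mark. Each deposited island list gives a score, which served to pick the upper 1/2 of a list in 1 alternative.

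Columns were scaled to CPM by their totals, and where a gene had several qualifying regions the one with the highest mean count was used. edgeR 4.0.16 in R 4.3.3 (exact test, TMM, all regions) gave the calls. Alternatives were edgeR's quasi-likelihood test, DESeq2 1.42.0, other scalings and filters, and leaving out each library. Replicates of a genotype differed by more than sampling noise (chi-square per region 1.08 to 2.08, 1 for noise alone). They are biological replicates of pooled rosettes, and p-values measure only the spread between these libraries. Near-identical copies were searched with blastn 2.17.0 at 95% identity. Gene parts, names, density and promoters come from the RefSeq annotation of TAIR10.1.

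The genes, the lists and the alternatives were chosen with earlier results of these data known. Genes named are the 12 with the largest summed difference, the 5 largest per mark, members of the lists and those at the 1.2-fold limit. Pairs within 20 kb, genes with copies, and families of 3 or more are named as well. Others named for their known roles were chosen after their values were seen. The 4 input samples were not analysed here.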

Additional observations from a re-analysis of the deposited data

How the results depend on the processing

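The number of genes losing both marks was 74 with TMM factors, 72 at a mean count of 50 or with no minimum, 70 without separated libraries and 60 with at least 200 bp shared by both regions. It was 34 at a mean count of 200 and 1 at 1.5-fold. Leaving out 1 library of 1 mark gave 63 to 104 genes, the latter without the first *ref4-3* replicate of H2A.Z, and 52 to 64 of the 68 stayed.

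With DESeq2, genes called decreased were 219 in place of 638 for H3K27me3 and 17 in place of 398 for H2A.Z. Among the 68 they were 33, 4 and 3 for H3K27me3, H2A.Z and both. At 1.5-fold the numbers were 109 and 41 genes, and 16, 4 and 1 of the 68. Leaving out 1 replicate gave 354 to 886 genes for H3K27me3, 79 to 543 for H2A.Z, and 39 to 61, 11 to 35 and 8 to 31 of the 68. Decreased calls were 58.3% of all H3K27me3 calls and 38.1% of H2A.Z calls. The shares were 63.0% and 31.5% with column totals, and 53.9% and 51.5% with DESeq2. The replicate block gave 672 and 394 genes, and 60, 46 and 43 of the 68. Replicate numbers are only names, with deviations correlated at 0.0715 for H3K27me3 and -0.0251 for H2A.Z.

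With islands in the upper part of the score, 19 genes for H3K27me3 and 27 for H2A.Z had longer wild-type islands, and 0 and 6 had longer *ref4-3* islands. The lists of single libraries gave 39 to 49 and 40 to 47 longer in wild type, and 1 to 3 and 3 to 6 longer in *ref4-3*. A difference of at least 200 bp gave 38 and 39 longer in wild type, and 0 and 1 in *ref4-3*. Shares over all genes were not taken for these alternatives. The definition of gene-poor surroundings was varied after seeing the data. Below 2/3 of the median density were 17 of the 68 genes (25.0%), against 6.21% of all genes with both marks. Below 1/3 were 11 of the 68 (16.2%, against 1.31%). With a window of 1 Mb there were 15 (22.1%, against 3.16%).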
